A study of Mus musculus with 12 samples.

Results

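Feedback regulators of the ERK pathway and the related Etv transcription factors were followed across cultures of mouse forebrain neural stem cells (NSCs). The 10 genes are the dual-specificity phosphatases Dusp4 and Dusp6, the Sprouty genes Spry1, Spry2 and Spry4, the Spred genes Spred1 and Spred2, and Etv1, Etv4 and Etv5. They were found by symbol among the 45792 genes of the deposited tables, and each of the 10 passed the filter on low counts that left 15706 genes for testing. The 12 libraries of ribosome-depleted RNA came from primary NSCs of newborn pups, grown in serum-free medium that holds EGF, FGF and insulin. The study describes each culture as coming from 1 pup. The groups were 4 untreated WT cultures, 4 Ncf1-/- cultures given vehicle, and 4 Ncf1-/- cultures given recombinant mouse Igfbp2. Ncf1 encodes a subunit of the NADPH oxidase complex and was knocked out constitutively in the Ncf1-/- animals, whose line had been back-crossed to C57BL/6J. Igfbp2, a secreted binding protein of the insulin-like growth factors, was added 48 h after plating at 100 ng/ml according to the sample labels (the methods give a lower dose), and RNA was taken 48 h later.

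ERK is the last kinase of a cascade that runs from growth factor receptors through Ras and Mek. Active ERK raises the transcription of its own inhibitors, so that the RNA of these genes is widely used as a readout of the pathway. Dusp4 and Dusp6 remove phosphate from ERK (Dusp4 in the nucleus, Dusp6 in the cytoplasm), Sprouty proteins act downstream of the receptors, and Spred proteins bring neurofibromin to Ras and so limit its activity. Etv1, Etv4 and Etv5 form the PEA3 group of Ets factors, which carry FGF and ERK signals to the genome. Capicua is a repressor of several of these genes that is released from DNA when ERK is active, and it binds octamers related to TGAATGAA.

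Promoter windows from RefSeq (GRCm38.p6, from 250 bases before to 50 bases after an annotated start) were found for 7 of the 10 genes, in 9 windows. Dusp4, Etv4 and Spry4 had no window. The octamers TGAATGAA, TGAATGGA, TCAATGAA and TCAATGGA, on either strand, were in the windows of Dusp6 and Spry2, that is, in 2 of 9 windows, against 3.84% of all 32851 windows. The Ets site CCGGAAGT was in 0 of the 9 windows and in 3.89% of all windows. Both promoters are printed up to base 9 of the transcript because they hold these octamers and belong to genes that move in the comparisons that follow. Capitals mark the octamers, which lie on the strand opposite to the gene and do not overlap each other. They begin at −24 and 2 in Dusp6 and at −54 in Spry2, where 1 is the first transcribed base.
Dusp6, chr10:99262981-99263239, + strand: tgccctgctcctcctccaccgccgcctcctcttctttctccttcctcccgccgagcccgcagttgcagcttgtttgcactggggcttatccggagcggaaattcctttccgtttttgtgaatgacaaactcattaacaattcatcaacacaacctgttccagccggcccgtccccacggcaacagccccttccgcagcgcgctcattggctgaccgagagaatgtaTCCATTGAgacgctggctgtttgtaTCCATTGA
Spry2, chr14:105896811-105897069, − strand: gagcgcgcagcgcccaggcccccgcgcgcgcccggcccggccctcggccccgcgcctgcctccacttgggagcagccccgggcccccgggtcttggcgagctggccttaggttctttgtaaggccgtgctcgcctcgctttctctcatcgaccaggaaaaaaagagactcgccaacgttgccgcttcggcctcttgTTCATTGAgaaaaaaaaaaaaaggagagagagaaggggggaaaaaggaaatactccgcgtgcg
A match of letters describes the window and does not show that a factor bound there.

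RSEM's expected counts, its estimates of reads per gene, summed to between 18201622 and 34086554 per library. Levels are given as CPM, the counts of a gene brought to 1 common library size by TMM scaling, and differences between groups as log2 fold changes from the fit (log2 differences in what follows). In each list of values the 4 values of a group follow the order of replicates 1 to 4. Ncf1 itself had 2 to 7 counts in the WT libraries and 1 to 4 in the Ncf1-/- libraries, so that its RNA could not check the labels. The 4 Y-linked genes examined summed to between 107 and 118 CPM in WT replicates 1 to 3 and to between 105 and 116 CPM in all 4 vehicle-treated libraries, against 6.46 CPM in WT replicate 4 and 7.79 to 9.18 CPM in the 4 Igfbp2-treated libraries. Xist was at 3.87 to 5.22 CPM in WT replicates 1 to 3, at 291 CPM in WT replicate 4, at 72.3 to 87.8 CPM with vehicle and at 166 to 275 CPM with Igfbp2. Treatment with Igfbp2 and this difference in Y-linked RNA therefore cannot be told apart, although the study describes the Ncf1-/- cultures as paired by animal. The vehicle-treated libraries held Y-linked RNA near the level of WT replicates 1 to 3 together with more Xist than those libraries. How this relates to cultures of 1 pup each was not tested. WT replicate 4 is also listed as apocynin-treated in one of the study's own sample sheets, and WT replicate 3, the deepest library, stands apart in its cell type markers. The neural stem cell markers summed to 7787 CPM in WT replicate 3, to 2335 to 3602 CPM in the other WT libraries and to 7387 to 8187 CPM in the 8 Ncf1-/- libraries. The list did not move one way, since 3 of its 8 genes, Nes among them, were called higher with the knockout (vehicle) and 4 were called lower, and Sox2 went from a mean of 386 CPM to 197 CPM. The 8 oligodendrocyte markers summed to 1653 CPM in WT replicate 3, to 5365 to 9686 CPM in the other WT libraries and to 215 to 297 CPM in the Ncf1-/- libraries. Astrocyte markers summed to 7359 to 13140 CPM in WT, highest in replicate 3, and to 3246 to 4729 CPM in Ncf1-/- libraries, oligodendrocyte precursor markers to 4843 to 5989 CPM and 3178 to 3846 CPM, while microglial markers were low, at 0.835 to 1.67 CPM in WT and 1.72 to 2.13 CPM in vehicle-treated libraries, and C1qa had 0 counts in every group. Nes and Sox2 RNA was present in every library. In WT the mean of Nes was 211 CPM, beside 5474 CPM for the astrocyte marker Gfap and 2448 CPM for the oligodendrocyte marker Mbp. Presence of Nes and Sox2 therefore does not show what share of the cells were NSCs, and NSC is used here as the study's label. In bulk RNA, fewer cells of a type and less RNA per cell cannot be told apart.

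**Figure D1:**
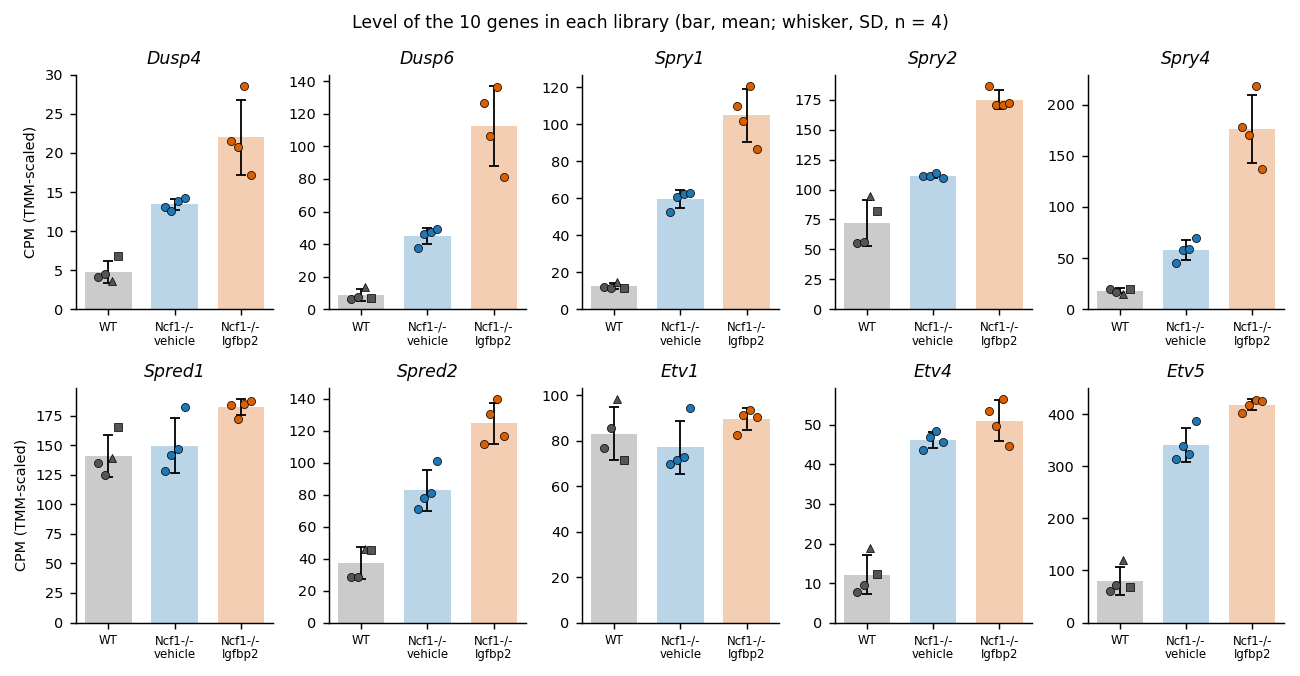
Level of each of the 10 genes in CPM after TMM scaling, 1 panel per gene with its own linear axis from 0. Bars are means, whiskers are SDs (n = 4) and points are libraries, with WT replicate 3 drawn as a triangle and WT replicate 4 as a square. Dusp4, Dusp6, Spry1, Spry2, Spry4 and Spred2 step up from WT to vehicle-treated and again to Igfbp2-treated Ncf1-/- libraries, Etv4 and Etv5 rise mainly between WT and Ncf1-/-, and Spred1 and Etv1 differ little.

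The first comparison asked how vehicle-treated Ncf1-/- NSCs differ from WT NSCs. Dusp4, Dusp6, Spry1, Spry2, Spry4, Spred2, Etv4 and Etv5 were higher in Ncf1-/- NSCs, by 1.55-fold for Spry2 to 5.11-fold for Dusp6, and Spred1 and Etv1 did not pass the test. These 8 of 10 genes were called at an adjusted p under 0.05 by edgeR's quasi-likelihood test with Benjamini-Hochberg adjustment over all genes tested, against 28.9% of all genes called higher and 28.2% called lower. Over the 10 genes the median log2 difference was 1.598, and over all genes it was 0.015. In the same 8 genes every Ncf1-/- library lay above every WT library, which held for 26.1% of all genes.

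Among the phosphatases, Dusp6 (chr10:99263231-99267489, + strand, GRCm38) gave the largest difference of the 10 genes. It was at 6.55, 7.50, 13.9 and 6.79 CPM in the WT libraries and at 37.9, 46.2, 47.5 and 49.1 CPM in the vehicle-treated Ncf1-/- libraries. The groups were far apart, and WT replicate 3 was the highest WT library by a wide gap. The log2 difference was 2.35 ± 0.24 (SE), with an adjusted p = 3.101e-06 by edgeR, and it was 2.70 without WT replicate 3. Dusp4 (chr8:34807297-34819894, + strand) was the least abundant of the 10 genes, at 4.18, 4.48, 3.59 and 6.79 CPM in WT and 13.1, 12.6, 13.8 and 14.2 CPM in Ncf1-/- libraries. For Dusp4 the log2 difference was 1.51 ± 0.19 (SE), with an adjusted p = 2.045e-05 by edgeR. The 4 Ncf1-/- values of Dusp4 lay close together, with an SD of 0.729 CPM around a mean of 13.4 CPM.

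The 3 Sprouty genes were all higher in Ncf1-/- NSCs, to unequal degrees. Spry1 (chr3:37639947-37644598, + strand) was at 12.01, 11.4, 14.9 and 11.3 CPM in WT and 52.3, 60.5, 62.3 and 62.7 CPM in Ncf1-/- libraries. Its log2 difference of 2.25 ± 0.12 (SE) came with the lowest p of the 10 genes, an adjusted p = 3.88e-08 by edgeR. Spry4 was at 20.2, 17.1, 14.8 and 20.0 CPM in WT and 44.9, 57.9, 59.0 and 69.1 CPM in Ncf1-/- libraries, a log2 difference of 1.68 ± 0.16 (SE), with an adjusted p = 2.372e-06 by edgeR. For Spry4, WT replicate 3 was the lowest WT library, unlike for Dusp6, Spry1 and Spry2. Spry2 (chr14:105891947-105896819, − strand) was at 55.7, 56.4, 94.3 and 81.8 CPM in WT and 111, 111, 114 and 110 CPM in Ncf1-/- libraries. Its groups did not overlap, but WT replicates 3 and 4 lay above the other WT libraries, replicate 3 closest to the Ncf1-/- level. The log2 difference of Spry2 was 0.63 ± 0.14 (SE), with an adjusted p = 0.00227 by edgeR, and with WT replicates 3 and 4 both left out, a choice made after seeing the data, it was 0.94.

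The Spred genes differed from each other. Spred2 (chr11:19924375-20024026, + strand) was at 28.3, 28.7, 46.1 and 45.6 CPM in WT and 70.8, 77.7, 81.2 and 100.9 CPM in Ncf1-/- libraries, without overlap. Spred2 was higher on the log2 scale by 1.15 ± 0.17 (SE), with an adjusted p = 8.55e-05 by edgeR. Spred1 (chr2:117121374-117182279, + strand) was at 135, 125, 139 and 166 CPM in WT and 128, 142, 147 and 183 CPM in Ncf1-/- libraries. These groups overlapped, and the log2 difference of 0.09 ± 0.11 (SE) missed the threshold, with an adjusted p = 0.534 by edgeR.

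Of the PEA3 factors, Etv4 and Etv5 were higher in Ncf1-/- NSCs and Etv1 was not. Etv5 (chr16:22381309-22439719, − strand) was at 60.0, 71.8, 119 and 67.8 CPM in WT and 315, 339, 323 and 388 CPM in Ncf1-/- libraries, the highest CPM of the 10 genes in that group. On the log2 scale Etv5 was higher by 2.10 ± 0.18 (SE), with an adjusted p = 9.531e-07 by edgeR. Etv4 (chr11:101769742-101785371, − strand) was at 7.73, 9.45, 19.0 and 12.2 CPM in WT and 43.6, 46.8, 48.4 and 45.7 CPM in Ncf1-/- libraries. The log2 difference of Etv4 was 1.92 ± 0.21 (SE), with an adjusted p = 6.326e-06 by edgeR, and WT replicate 3 was again the highest WT library for both genes. Etv1 (chr12:38779380-38870484, + strand) was at 76.7, 85.4, 98.3 and 71.5 CPM in WT and 69.7, 71.6, 72.6 and 94.5 CPM in Ncf1-/- libraries, which overlapped. The log2 difference of Etv1 was −0.11 ± 0.12 (SE), with an adjusted p = 0.457 by edgeR, and without vehicle-treated replicate 4, which alone lay above 72.6 CPM, it was −0.26 (edgeR adjusted p = 0.0475).

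WT replicate 3 held the highest WT value of 7 of the 10 genes, with a median ratio of 1.32 to the mean of the other 3 WT libraries, and its Nes and oligodendrocyte marker levels also lay towards the Ncf1-/- libraries, whereas its astrocyte marker sum was the WT value farthest from them. Between the genotypes 8 of 8 oligodendrocyte and 7 of 8 astrocyte markers were called lower, and their part in the result was not tested. The 8 genes were called without WT replicate 3, without WT replicate 4 and without both. Without WT replicate 4, the summed Y-linked RNA of the WT and vehicle-treated libraries overlapped. Xist did not overlap there, at 3.87 to 5.22 CPM in WT replicates 1 to 3 and 72.3 to 87.8 CPM with vehicle. In those libraries genotype and this difference in Xist cannot be told apart. Tukey's comparisons on TPM called 3 of the 10 genes, Spry1, Etv4 and Etv5, against 2271 higher and 2058 lower of 27880 genes, and the other 5 genes lost their call at log2 differences of 0.65 to 2.39. Library totals in place of TMM called 8 of them and moved the split of all genes from 4545 higher and 4433 lower to 6024 higher and 3159 lower.

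The second comparison asked what Igfbp2 changed in Ncf1-/- NSCs. Dusp4, Dusp6, Spry1, Spry2, Spry4 and Spred2 were higher in Igfbp2-treated than in vehicle-treated NSCs, by 1.51-fold for Spred2 to 3.05-fold for Spry4. These 6 of 10 genes were called, against 14.2% of all genes called higher and 10.7% called lower. The 5 phosphatase and Sprouty genes were all among them, and Spred1, Etv1, Etv4 and Etv5 were not. Over the 10 genes the median log2 difference was 0.62, against 0.04 over all genes. In 7 of 10 genes every Igfbp2-treated library lay above every vehicle-treated library, which held for 19.3% of all genes. The mesenchymal and vascular markers summed to 9.89 to 12.8 CPM with vehicle and 22.1 to 25.4 CPM with Igfbp2, and the neuronal markers to 488 to 553 CPM and 439 to 467 CPM, and their part in the result was not tested.

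Spry4 gave the largest difference, at 178, 170, 218 and 137 CPM in the Igfbp2-treated libraries against 44.9 to 69.1 CPM with vehicle. Its log2 difference was 1.61 ± 0.16 (SE), with an adjusted p = 0.000359 by edgeR, beside 1.68 between the genotypes. Dusp6 was at 127, 106, 136 and 81.0 CPM with Igfbp2 against 37.9 to 49.1 CPM with vehicle, a log2 difference of 1.32 ± 0.22 (SE), with an adjusted p = 0.00204 by edgeR. Spry1 was at 110, 102, 121 and 86.7 CPM with Igfbp2 against 52.3 to 62.7 CPM with vehicle, a log2 difference of 0.82 ± 0.12 (SE), with an adjusted p = 0.000933 by edgeR. In these 3 genes Igfbp2-treated replicate 3 was the highest and replicate 4 the lowest of the treated libraries, and the lowest still lay above every vehicle-treated library.

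Dusp4 was at 21.5, 20.7, 28.6 and 17.1 CPM with Igfbp2 against 12.6 to 14.2 CPM with vehicle, and its log2 difference was 0.71 ± 0.18 (SE), with an adjusted p = 0.0136 by edgeR. Without Igfbp2-treated replicate 3 it was 0.51 and no longer called (edgeR adjusted p = 0.0577). Spry2 was at 187, 170, 171 and 172 CPM with Igfbp2 against 110 to 114 CPM with vehicle, with little spread in either group. The log2 difference of Spry2 was 0.65 ± 0.14 (SE), with an adjusted p = 0.00751 by edgeR. Spred2 was at 112, 131, 140 and 117 CPM with Igfbp2 against 70.8 to 100.9 CPM with vehicle, a log2 difference of 0.59 ± 0.17 (SE), with an adjusted p = 0.0241 by edgeR. This call was lost when vehicle-treated replicate 1, 2 or 3 or Igfbp2-treated replicate 2 or 3 was left out, with log2 differences of 0.49 to 0.57 (edgeR adjusted p between 0.0661 and 0.0747).

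Etv4, which was higher in Ncf1-/- than in WT libraries, was at 53.4, 49.8, 56.6 and 44.7 CPM with Igfbp2, within reach of the 43.6 to 48.4 CPM with vehicle. Etv4 had a log2 difference of 0.15 ± 0.20 (SE), with an adjusted p = 0.611 by edgeR. Etv5 was at 403, 418, 427 and 426 CPM with Igfbp2, all above the 315 to 388 CPM with vehicle, but the log2 difference of 0.30 ± 0.17 (SE) missed the threshold, with an adjusted p = 0.221 by edgeR. Etv5 was called when WT replicate 3 was left out (log2 difference 0.30, edgeR adjusted p = 0.021). It was also called in a fit of the Ncf1-/- libraries alone with preparations as a block (log2 difference 0.25, edgeR adjusted p = 0.0278). That fit both left out the WT libraries and added the block, so its calls cannot be credited to the block alone. Spred1 was at 184, 172, 185 and 188 CPM with Igfbp2 and overlapped with vehicle-treated replicate 4 at 183 CPM. Its log2 difference was 0.28 ± 0.11 (SE), with an adjusted p = 0.0829 by edgeR. The fit with the block and without the WT libraries again gave a call (log2 difference 0.25, edgeR adjusted p = 0.0414). Leaving out vehicle-treated replicate 4 did so too (log2 difference 0.41, edgeR adjusted p = 0.0125). Etv1 was at 82.3, 91.2, 93.6 and 90.4 CPM with Igfbp2 and overlapped with vehicle, with a log2 difference of 0.21 ± 0.12 (SE), with an adjusted p = 0.195 by edgeR. Without vehicle-treated replicate 4 the value of Etv1 was 0.34 (edgeR adjusted p = 0.0295).

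**Figure D2:**
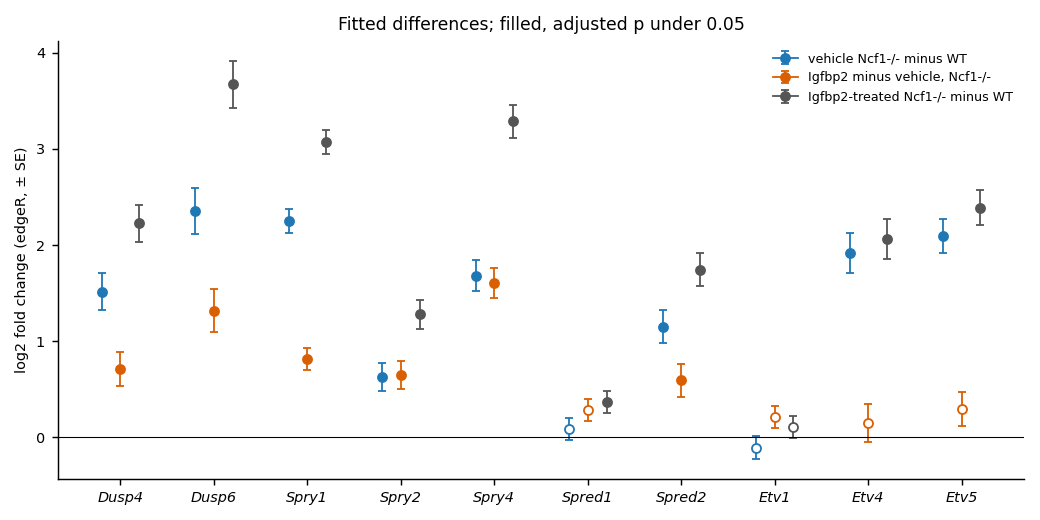
Fitted log2 difference (± SE, edgeR) of each gene in 3 comparisons that share libraries: vehicle-treated Ncf1-/- minus WT (blue), Igfbp2 minus vehicle in Ncf1-/- (orange) and Igfbp2-treated Ncf1-/- minus WT (grey). Filled points have an adjusted p under 0.05. Etv4 and Etv5 have blue values near 2 and orange values near 0, whereas Spry4 has blue and orange values of 1.68 and 1.61.

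The treatment comparison depended on how libraries were scaled, and the TMM factors were 1.08 to 1.14 with vehicle and 0.893 to 0.976 with Igfbp2. The median log2 difference of all genes between the treatments was 0.04 with TMM, −0.23 with library totals and −0.43 for the ratio of mean TPM. All genes called higher and lower numbered 2238 and 1685 with TMM, 648 and 5258 with library totals, and 200 and 6154 with limma on log2(TPM + 1). Of the 10 genes, library totals left Dusp6, Spry1 and Spry4 called and limma on log2(TPM + 1) left Dusp6 and Spry4. A change of scaling shifts all genes nearly alike, so values relative to the median of all genes were bound to move little. They are therefore no check on the scaling. Relative to this median, Spry4 was at 1.57 with TMM, 1.57 with library totals and 1.59 from mean TPM. Those of Dusp6 were 1.28, 1.29 and 1.30, and those of Etv5 were 0.26, 0.26 and 0.25. With limma on log2(TPM + 1) they were 1.35 for Spry4, 1.07 for Dusp6 and 0.115 for Etv5. Each of the 10 genes lay above the median of all genes with TMM, library totals and mean TPM. Even so, Etv1 and Etv4 were below 0 with library totals, and Spred1, Etv1, Etv4 and Etv5 were below 0 from mean TPM. With the Y-linked RNA as a covariate, 0 of the 10 genes and 5 of all genes were called between the treatments (edgeR), and the log2 differences were 1.40 for Spry4, 1.75 for Dusp6, 0.98 for Spry1 and 0.003 for Dusp4. This fit cannot separate the treatment from Y-linked RNA, which was at 105 to 116 CPM in every vehicle-treated and 7.8 to 9.18 CPM in every Igfbp2-treated library. Within a group only WT replicate 4 differed much in it, at 6.46 CPM against 107 to 118 CPM in the other WT libraries.

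**Figure D3:**
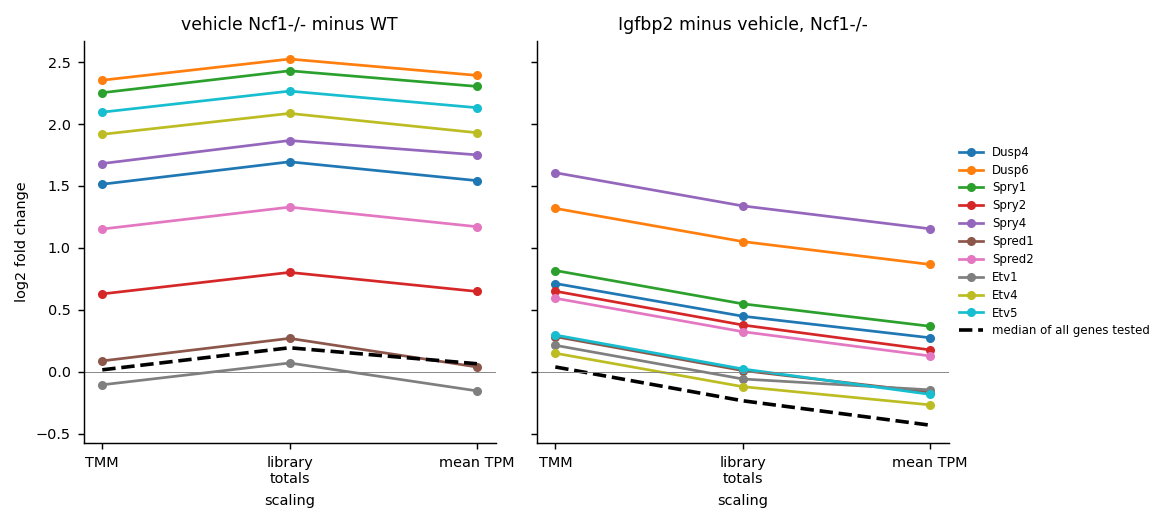
Log2 fold change of the 10 genes (coloured lines) and median of all genes tested (dashed black line) under TMM scaling, library totals and mean TPM, for vehicle-treated Ncf1-/- minus WT (left) and for Igfbp2 minus vehicle (right). On the right the median falls from 0.04 to −0.43 and the 10 genes fall with it, Spry4 and Dusp6 staying highest.

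A ratio of 2 genes within a library does not depend on the scaling. TPM, which allows for transcript length, was therefore divided by that of Etv5 in the same library, a choice made after seeing the values and given without a test. Dusp6 was at 0.145 to 0.169 of Etv5 in WT, 0.171 to 0.213 in vehicle-treated and 0.273 to 0.462 in Igfbp2-treated libraries, without overlap between any 2 groups. Spry4 was at 0.121 to 0.157 of Etv5 with vehicle and 0.275 to 0.440 with Igfbp2, and Spry1 was at 0.263 to 0.314 and 0.331 to 0.463. For both genes the treated libraries lay above the vehicle-treated ones, while the WT libraries ranged from 0.107 to 0.290 for Spry4 and from 0.204 to 0.326 for Spry1. Dusp4 was at 0.0540 to 0.0631 with vehicle and 0.0591 to 0.0989 with Igfbp2, which overlapped, and at 0.0446 to 0.148 in WT. Spry2 was at 0.5595 to 0.700 with vehicle and 0.791 to 0.919 with Igfbp2, and Spred2 at 0.252 to 0.290 and 0.304 to 0.366. Both were higher in WT, at 1.56 to 2.39 for Spry2 and 0.445 to 0.757 for Spred2. Etv4 was at 0.305 to 0.413 of Etv5 in WT, 0.295 to 0.359 with vehicle and 0.262 to 0.350 with Igfbp2, so that the groups overlapped throughout. Spred1 was at 0.9003 to 1.89 of Etv5 in WT and 0.294 to 0.318 with vehicle, and Etv1 at 1.38 to 2.02 and 0.339 to 0.349, far apart in both.

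**Figure D4:**
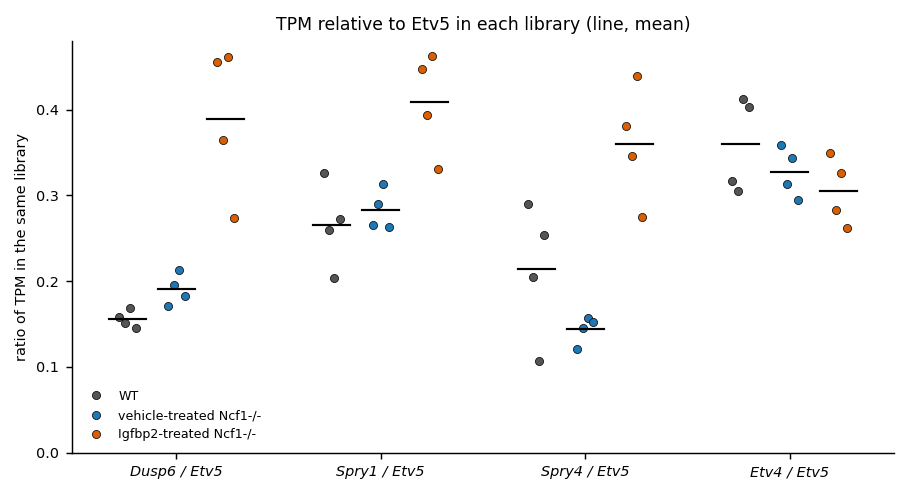
TPM of Dusp6, Spry1, Spry4 and Etv4 divided by the TPM of Etv5 in the same library, for WT (grey), vehicle-treated (blue) and Igfbp2-treated (orange) Ncf1-/- libraries, with lines at the means. With Igfbp2 the ratios of Dusp6, Spry1 and Spry4 lie above those with vehicle in every library, and those of Etv4 overlap.

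The third comparison set the Igfbp2-treated Ncf1-/- NSCs against WT NSCs. Of the 10 genes, 9 were called higher, against 31.6% of all genes called higher and 30.8% called lower, and in these 9 every treated library lay above every WT library, as in 27.8% of all genes. Dusp6 was 12.8-fold (log2 difference 3.67 ± 0.25, SE), Spry4 9.77-fold (3.29 ± 0.17) and Spry1 8.40-fold (3.07 ± 0.13) higher than in WT. Etv5 was 5.25-fold, Dusp4 4.68-fold, Etv4 4.19-fold, Spred2 3.35-fold and Spry2 2.43-fold higher. Spred1 was 1.29-fold higher (edgeR adjusted p = 0.012), a call lost with library totals (edgeR adjusted p = 0.0616), and Etv1 was at 1.08-fold (edgeR adjusted p = 0.445). From mean TPM both fell below 0, with log2 differences of −0.13 for Spred1 and −0.30 for Etv1. For the 8 genes raised in vehicle-treated Ncf1-/- NSCs, the fitted value with Igfbp2 lay farther from WT than that with vehicle, by an amount that was called for 6 of them. For Etv4 and Etv5 this order reversed on TPM, and for Etv4 with library totals too. This comparison shares its libraries with both of the others. A test over the 3 groups called 9 of the 10 genes, against 71.6% of all genes.

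Per transcript length, Spry2 (27.8 ± 10.2 TPM, SD, n = 4), Etv1 (26.0 ± 6.71 TPM) and Spred1 (20.4 ± 4.53 TPM) were the most abundant of the 10 genes in WT, and Dusp4 (1.34 ± 0.438 TPM) was the least. Every gene overlapped with its neighbour in the WT order. In vehicle-treated Ncf1-/- libraries Etv5 stood first at 68.0 ± 13.4 TPM and Spry2 second at 43.5 ± 3.98 TPM, each above the next gene without overlap. Etv1, Etv4, Spred1, Spry1, Spred2, Dusp6 and Spry4 followed at 23.4 to 9.86 TPM, each overlapping with its neighbour, and Dusp4 was last at 3.91 ± 0.562 TPM. With Igfbp2, Etv5 (59.9 ± 11.7 TPM) and Spry2 (49.1 ± 7.74 TPM) overlapped, Spry1, Dusp6 and Spry4 came next at 24.7, 23.6 and 21.95 TPM, and Dusp4 stayed last at 4.73 ± 1.81 TPM.

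The other genes of the pathway, from lists chosen for the pathway, did not share one direction between the genotypes. The TMM counts in this and the next paragraph stand beside 28.9% of all genes called higher and 28.2% called lower. Of 16 other feedback inhibitors tested, 6 were higher with the knockout and 6 lower (median log2 difference 0.30). Dusp10, a phosphatase of p38 and JNK (9.55 to 37.7 CPM, group means), and Dusp5, a nuclear phosphatase of ERK (2.17 to 6.25 CPM), rose most, with log2 differences of 1.97 ± 0.11 and 1.52 ± 0.18 (SE). Dusp9, an ERK phosphatase (2.89 to 0.189 CPM), and Spry3, another Sprouty gene (9.06 to 2.04 CPM), fell most, with log2 differences of −3.79 ± 0.60 and −2.14 ± 0.19 (SE). Of 14 receptors, 2 were higher and 9 lower. The receptor of EGF, Egfr, rose by 1.39 ± 0.26, and Fgfrl1, an FGF-binding receptor without a kinase domain, by 1.05 ± 0.28 on the log2 scale. Pdgfrb and Erbb4, receptors of PDGF and neuregulins, had log2 differences of −5.36 ± 0.50 and −2.21 ± 0.12.

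Of 8 ligands tested among 14, 1 was higher (Egf, 0.89 ± 0.22 on the log2 scale, at under 2 CPM) and 4 were lower. The EGF receptor ligand Tgfa had a log2 difference of −2.21 ± 0.14, from 93.1 to 20.1 CPM, and Pdgfa, the ligand of Pdgfra, one of −2.94 ± 0.31, from 69.0 to 8.97 CPM. Of 24 genes of the core cascade, 2 were higher (Shc1, an adaptor, and Map2k1, which encodes Mek1) and 13 lower. Their median log2 difference was −0.39, and the largest falls were those of the scaffold Ksr2 (−2.99 ± 0.26) and the adaptor Shc2 (−1.55 ± 0.18). Among 13 other ERK-responsive genes, 4 rose and 4 fell. Ccnd1, which encodes cyclin D1, went from 67.0 to 533 CPM and the ephrin receptor Epha2 from 0.403 to 4.42 CPM, with log2 differences of 2.99 ± 0.21 and 3.32 ± 0.40, whereas Fosb, an immediate early gene, and Epha4 had −2.64 ± 0.53 and −2.41 ± 0.20. Of 10 other Ets factors, 1 rose (Ets1, 0.77 ± 0.24) and 5 fell, Elf1 (−1.61 ± 0.13) and Etv6 (−1.12 ± 0.13) most. With library totals, which raised the median of all genes from 0.015 to 0.193, 2 Ets factors rose and 2 fell, and 1 ligand rose and 2 fell. The core cascade then had 6 higher and 11 lower.

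**Figure D5:**
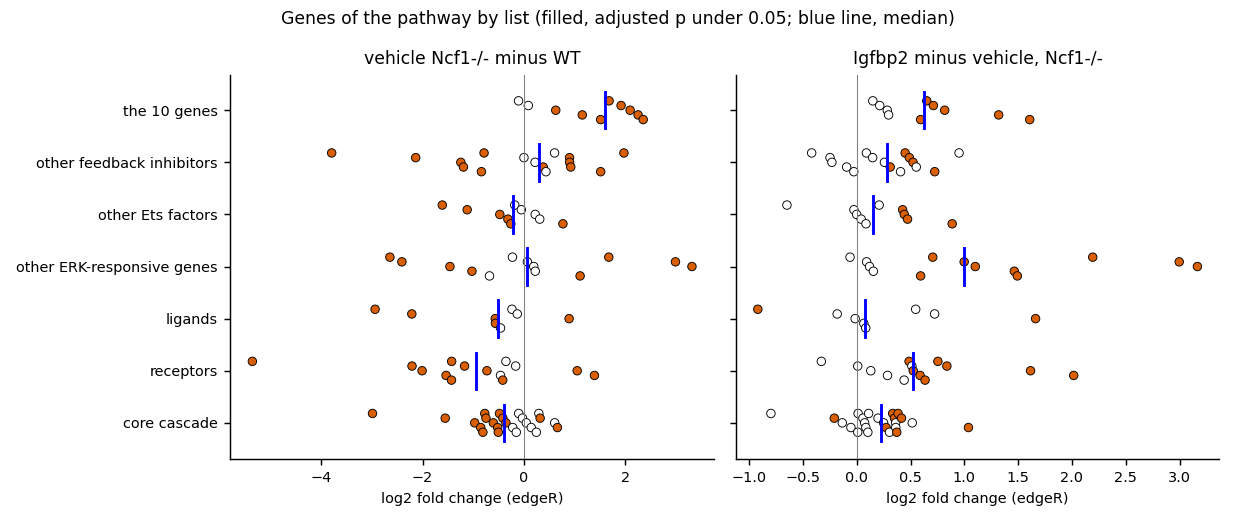
Log2 fold change (edgeR, TMM) of the 10 genes and of 6 other lists of the pathway, each point a gene, for vehicle-treated Ncf1-/- minus WT (left) and Igfbp2 minus vehicle (right); the 2 axes differ in range. Filled points have an adjusted p under 0.05 and blue lines are medians, at 1.598 and 0.62 for the 10 genes and at −0.95 and 0.52 for the receptors.

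Between the treatments, 9 of the 13 other ERK-responsive genes were higher with Igfbp2 and 0 lower, with a median log2 difference of 0.998. The TMM counts of this paragraph stand beside 14.2% of all genes called higher and 10.7% called lower. Egr1, an immediate early transcription factor, went from 25.4 to 228 CPM (log2 difference 3.17 ± 0.35, SE, edgeR adjusted p = 0.000397) and Fosb from 0.594 to 4.79 CPM (2.997 ± 0.53, edgeR adjusted p = 0.00272). These lists were also read against the scaling. With library totals 7 and with limma on log2(TPM + 1) 4 of the ERK-responsive genes were higher and 0 lower, Egr1 and Fosb among them. Of the 14 receptors, 8 were higher with TMM, Pdgfrb (0.315 to 1.31 CPM) and Met, the receptor of hepatocyte growth factor (1.37 to 4.23 CPM), most, with log2 differences of 2.02 ± 0.57 and 1.62 ± 0.52. With library totals 4 receptors were higher, and with limma on log2(TPM + 1) 0 were higher and 1 was lower. Of the 16 feedback inhibitors, 5 were higher with TMM, Dusp7 (0.72 ± 0.21) and Dusp5 (0.52 ± 0.16) most, and with library totals and with limma on log2(TPM + 1) 0 were higher and 3 lower. The median of this list was 0.28 with TMM, where that of all genes was 0.04, 0.013 with library totals, where that of all genes was −0.235, and −0.24 with limma, where that of all genes was −0.296. The core cascade (7 higher and 1 lower) and the other Ets factors (4 higher and 0 lower) had 1 higher and 5 lower and 0 higher and 3 lower with library totals. Their distance above the median of all genes was 0.188 and 0.107 with library totals. Their medians with TMM were 0.22 and 0.15, where that of all genes was 0.04. What moved the counts was not tested. In the core cascade Rras (1.04 ± 0.26) and Map2k1 (0.42 ± 0.12) rose most, and among Ets factors Ets2 (0.89 ± 0.23) and Etv6 (0.47 ± 0.13) rose most. Of the ligands, Hbegf, which binds the EGF receptor, was higher (1.66 ± 0.24, from 9.10 to 28.8 CPM) and Egf lower (−0.92 ± 0.22), and both kept their call and direction with library totals and with limma on log2(TPM + 1).

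Genes outside these lists with the most similar pattern were sought among 11162 genes of at least 5 CPM by Pearson's r of log2 CPM over the 12 libraries, which fall into the 3 groups and so share most of that pattern. The 2 most similar genes were Tpm1 and Fblim1 for Dusp6 (r = 0.992 and 0.991), Slc1a5 and Cd93 for Spry1 (0.996 and 0.995), Itga5 and Dgkz for Spry2 (both 0.993), and Rpn2 and RP24-230J14.4 for Spry4 (0.989 and 0.985). For Etv5 they were Lpo and Mest (0.998 and 0.995), for Etv4 Spsb4 and Arhgap18 (both 0.996), for Dusp4 Pold2 and Atad3a (0.987 and 0.986), and for Spred2 Kirrel and Adamts1 (both 0.996). Spred1 (Canx and Xpot, 0.965 and 0.948) and Etv1 (Ppp1r12a and C2cd3, 0.927 and 0.919), which differed least between the groups, had the lowest values.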

How the data were processed

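The authors mapped reads of 12 ribosome-depleted libraries to GRCm38 with Bowtie2 and quantified genes with RSEM, per the labels, and deposited expected counts per gene without normalization. They also deposited the TPM that RSEM gives. The merged table made by the authors holds a score equal to the TPM times the number of transcripts of the gene (100% of 257083 values above 0), and it was used only to pair gene identifiers with symbols.

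The 10 genes and the lists were chosen with earlier results of these data known. Expected counts were rounded, filtered with filterByExpr, scaled by TMM and fitted with edgeR 4.0.16 (R 4.3.3, quasi-likelihood, a mean per group, all 12 libraries, no covariate), and genes with a Benjamini-Hochberg adjusted p under 0.05 were called. The SE beside a log2 difference was its absolute value divided by the square root of edgeR's F statistic. CPM were TMM-scaled, and 0.5 was added before log2 for the similarity of patterns. The fits were tested on simulated counts. Alternatives were DESeq2 1.42.0, library totals, no filter, a floor of 5 CPM on the mean, limma 3.58.1 on log2(TPM + 1) and log2(TPM + 0.1), Tukey's comparisons on TPM after the study's methods, only the 2 groups compared, Y-linked RNA as a covariate, the preparation as a block (without the WT libraries), stricter thresholds and each library left out. From every list of other pathway genes (not of cell type markers), up to 2 called genes that rose most and up to 2 that fell most were named, except 1 gene that is not reported here. Positions are from GENCODE M21. The study states that vehicle- and Igfbp2-treated cultures of 1 number share an animal. Deviations from the group means correlated between −0.11 and 0.10 over the 4 such pairs, against −0.36 to 0.38 over 12 other pairs. P-values measure the spread between libraries, each taken as a separate culture as the study describes. Whether the libraries of a group are independent was not tested.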

Additional observations from a re-analysis of the deposited data

Results flagged for a closer look

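In 3 of 30 sets of 4 libraries (10 genes in 3 groups), 1 library lay far outside the other 3, where chance flags about 1 set in 20. Dusp6 was at 13.9 CPM in WT replicate 3, against 6.55 to 7.50 CPM in the other WT libraries. Spry2 was at 187 CPM in Igfbp2-treated replicate 1, against 170 to 172 CPM. Etv1 was at 94.5 CPM in vehicle-treated replicate 4, against 69.7 to 72.6 CPM. Causes were not tested.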

How the results depend on the processing

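Between the genotypes 8 of the 10 genes were called by edgeR and 3 by Tukey's comparisons on TPM. The count was 8 or 9 with any 1 library left out, as it was between Igfbp2-treated and WT NSCs, and 8 to 10 over the 3 groups. Between the treatments 6 were called, 3 with library totals, 2 with limma on log2(TPM + 1) or log2(TPM + 0.1), 0 with Tukey's comparisons, 0 with the Y-linked covariate, 2 at a log2 fold change of at least 1, 8 with the preparation as a replicate block and no WT libraries, and 4 to 8 with 1 library left out. Of all genes, 2238 were called higher and 1685 lower in the main fit. These counts were 648 and 5258 with library totals, 200 and 6154 with limma on log2(TPM + 1), and 165 and 6354 on log2(TPM + 0.1). They were 64 and 2085 with Tukey's comparisons, 3 and 2 with the Y-linked covariate, and 2874 and 2560 with the block. The causes were not tested.

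Signs changed only for Spred1, Etv1, Etv4 and Etv5. Of the values that changed sign, that of Spred1 between Igfbp2-treated and WT NSCs was called with TMM, at 0.37 (edgeR adjusted p = 0.012). The others were not called with TMM, where they lay between −0.11 and 0.30. Between the treatments the changed values were, with library totals, −0.059 for Etv1 and −0.12 for Etv4. With limma on log2(TPM + 1) they were −0.16 for Spred1, −0.15 for Etv1, −0.28 for Etv4 and −0.18 for Etv5. With log2(TPM + 0.1) they were −0.16, −0.16, −0.29 and −0.18, and with Tukey's comparisons −0.17, −0.15, −0.27 and −0.18. Between Igfbp2-treated and WT NSCs, Spred1 and Etv1 had −0.12 and −0.29 with log2(TPM + 1), −0.12 and −0.30 with log2(TPM + 0.1), −0.13 and −0.30 with Tukey's comparisons, and Etv1 had −0.0254 without WT replicate 4, within −0.0254 to 0.2018 over single libraries left out. Between the genotypes, Etv1 had 0.0705 with library totals and Spred1 −0.0611 without vehicle-treated replicate 4, within −0.0611 to 0.1586 over single libraries left out. Of the values of single genes under an alternative, 600 kept their direction and side of the threshold, 39 lost and 8 gained a call, and 23 changed sign.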

Other observations

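Set against WT NSCs, the Igfbp2-treated Ncf1-/- NSCs had 7 of 13 other ERK-responsive genes called higher and 1 lower, with a median log2 fold change of 0.82 (edgeR). Of 14 receptors, 4 were higher and 7 lower, with a median of −0.34, and of 24 core cascade genes 6 were higher and 11 lower, with a median of −0.22. Of all genes, 31.6% were called higher and 30.8% lower in this comparison. The endogenous Igfbp2 RNA was at 28.9, 27.4, 228 and 108 CPM in WT, at 636 to 768 CPM in vehicle-treated and at 1016 to 1278 CPM in Igfbp2-treated Ncf1-/- libraries.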
